A study of Nomascus leucogenys and Hoolock leuconedys and Nomascus gabriellae with 23 samples.

Results

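The intergenic interval elements are copies of LAVA that the deposited insertion table places between genes and describes by a stretch of the genome rather than by a single base. They were taken as the rows whose location class is intergenic and whose end lies more than 1 bp beyond the start, which gave 491 elements of 5490 sites. The other intergenic sites of the table, 1856 in number, are given as a single base, and 543 further interval elements lie in introns. The table carries no gene name for any of the 491, so no neighbouring gene is named here.

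LAVA is a composite retrotransposon found in gibbons. It has no enzymes of its own and is thought to be copied by proteins of the LINE-1 element, a process that starts at the 3′ end of the transcript and often stops early, leaving copies that lack their 5′ part. Its body joins Alu-like sequence, a block of tandem repeats of variable number (the VNTR) and a 3′ part made of AluSz and LINE fragments. Because a copy is rarely lost precisely once inserted, carrying the same copy is commonly read as shared descent, although copies that still vary when species separate can be sorted unevenly among them.

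Whole-genome libraries were made from blood DNA of 23 gibbons. The 13 Nomascus animals were 11 N. leucogenys and 2 N. gabriellae. The 5 Hylobates animals were 2 H. moloch, 1 H. lar, 1 H. muelleri and 1 H. pileatus. A further 3 animals were Hoolock leuconedys, and 2 were Symphalangus syndactylus. Ages, sexes and kinship of the animals were not used here, and p-values treat the animals as independent. For each site and animal the table holds 1 (carried), 0 (not carried) or no call, without read numbers, so the depth behind a call is unknown. The letters of the elements were not analysed here.

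Before the results, a property of the table has to be given. On all 26 chromosomes the sites are listed in 2 runs, each in order of position. The second run holds 905 sites, all of them interval sites carried by all 23 animals with no missing call, whereas 528 of the 4585 sites in the first run have a missing call. Of the 491 intergenic interval elements, 391 are in the second run and 100 in the first. Of those 100, 1 was carried by all 23 animals. The sources do not say how the calls of the second run were made, and the share of elements carried by every animal rests on that run almost wholly. A pair of animals also stood out against its labels. H. moloch replicate 1 and H. muelleri, which are labelled as different species, differed at only 5 of the 491 elements, fewer than any other pair within Hylobates. The main Hylobates counts and differences are therefore also given without each of them, and the main counts and shares without both. For the counts, and for leaving out both, this choice was made after seeing the data.

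Most elements started well inside the 5′ end of the consensus, and many were longer than the part of it they cover. Whether the bases before the consensus start are missing from an element, or present but not matched, was not determined. Their length ranged from 540 to 4466 bp with a median of 1166 bp (quartiles 856 and 1555 bp). The median was 1329 bp among intronic interval elements, with quartiles of 932 and 1737 bp, and 1309 bp over all sites. The last value is not like for like, since most sites are single-base and their length is the stretch of consensus covered. The median stretch covered was 942 bases in intergenic and 1023 in intronic interval elements, and 1166 over all sites. Of the intergenic elements 63.1% were at least 1000 bp long (exact Clopper-Pearson 95% interval 58.7 to 67.4), against 70.3% of the intronic ones (66.3 to 74.2). The listed consensus positions run from 0 to 1839, and the full length of the consensus was not available. A length above 1839 bp was found in 13.8% of intergenic (10.9 to 17.2) and 21.0% of intronic elements (17.6 to 24.7). The intergenic elements were thus the shorter set on each of these measures. These differences over elements were not tested, and the intervals cover counting error only.

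**Figure D1:**
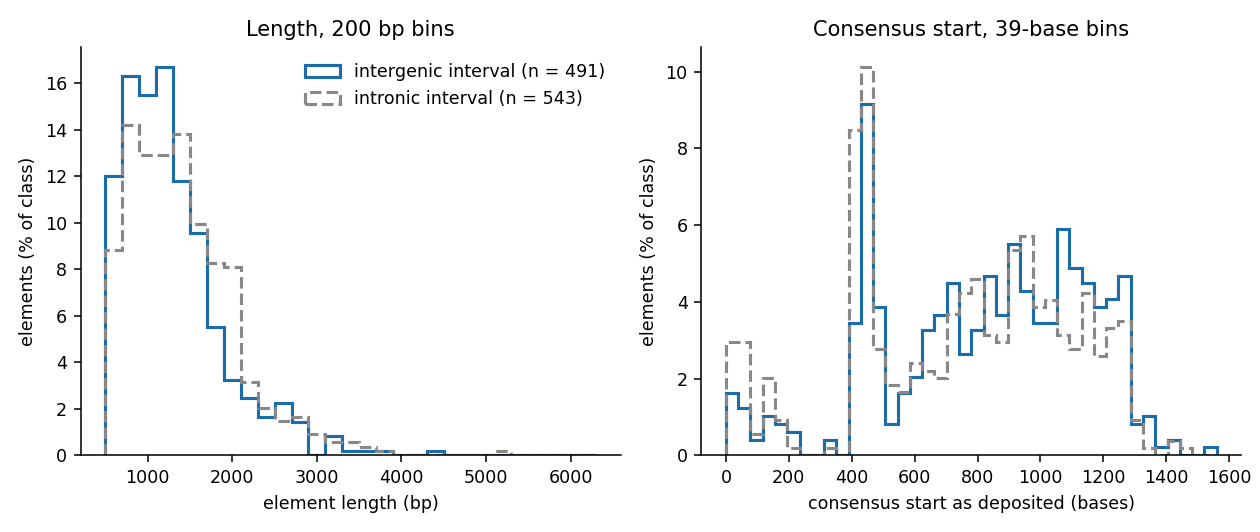
Left, element length in bp; right, consensus start in bases as deposited; both as a percentage of the class, for the 491 intergenic (solid) and 543 intronic (dashed) interval elements. Intergenic elements had a median length of 1166 bp against 1329 bp for intronic ones, and few elements of either class (6.11% and 9.76%) started before base 400.

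The longest element, 4466 bp on the minus strand of chromosome 23 (25992194 to 25996659), covered the consensus only from base 1320 to base 1816. It therefore held 3970 bp more than its consensus span. Next in length were elements of 3766 bp on chromosome 20 (39482600 to 39486365) and 3504 bp on chromosome 12 (609800 to 613303). An element of 3444 bp lay on chromosome 14 (46871303 to 46874746) and another of 3279 bp on chromosome 3 (68115258 to 68118536). All 5 were carried by all 23 animals. At the other extreme, the shortest element was 540 bp, on chromosome 18 (68516626 to 68517165), and was also carried by every animal. The next in order of length were 555 bp on chromosome 10 (51457020 to 51457574), 557 bp on chromosome 6 (5371813 to 5372369), 569 bp on chromosome 3 (73063776 to 73064344) and 571 bp on chromosome 4 (107937916 to 107938486). None of these 4 was carried by all animals. Positions are printed as counted from 1 and refer to a genome build that the sources do not name.

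On the consensus, starts were spread and ends were not. The consensus start had a median of 873 (quartiles 583 and 1086), against 793 in intronic interval elements (456 and 1018). Only 30 of the 491 elements (6.11%) started before base 400, 96 (19.6%) between 400 and 600, 192 (39.1%) between 600 and 1000 and 173 (35.2%) beyond 1000. The most frequent single starts were base 456 in 14 elements and base 421 in 13. Just 4 elements (0.815%, exact 95% interval 0.222 to 2.07) began within 20 bases of the lowest start and ended within 20 bases of the highest end in the table. That number was 0 at a tolerance of 5 bases and 9 at 50 bases, so it depends on where the line is drawn. Among intronic interval elements it was 5 of 543 (0.921%), and among intergenic single-base sites 401 of 1856 (21.6%). The last share is not like for like, since all single-base sites end at 1838 or 1839 and so meet the end condition. The 204 intergenic interval elements ending between 1814 and 1818 fail it whatever their start. Whatever the end, starts within 100 bases of the lowest made up 3.26% of intergenic interval elements, 6.08% of intronic ones and 25.1% of intergenic single-base sites.

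The consensus starts of the intergenic elements were most often 39 bases apart, among the distances counted. Distances beyond 60 bases were not counted, so whether higher multiples of 39 also stand out is unknown. Over distances of 5 to 60 bases, 815 pairs of elements had starts 39 bases apart, against a median of 192.5 pairs per distance. The next most frequent distances were 19 bases (489 pairs) and 59 bases (488 pairs). Intronic interval elements also peaked at 39 bases (855 pairs, median 201), followed by 21 bases (827 pairs). Among intergenic single-base sites the most frequent distance was instead 10 bases (12427 pairs, median 2755), and 39 bases had 2783 pairs. Pairs share elements, and no test was made of these counts.

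**Figure D2:**
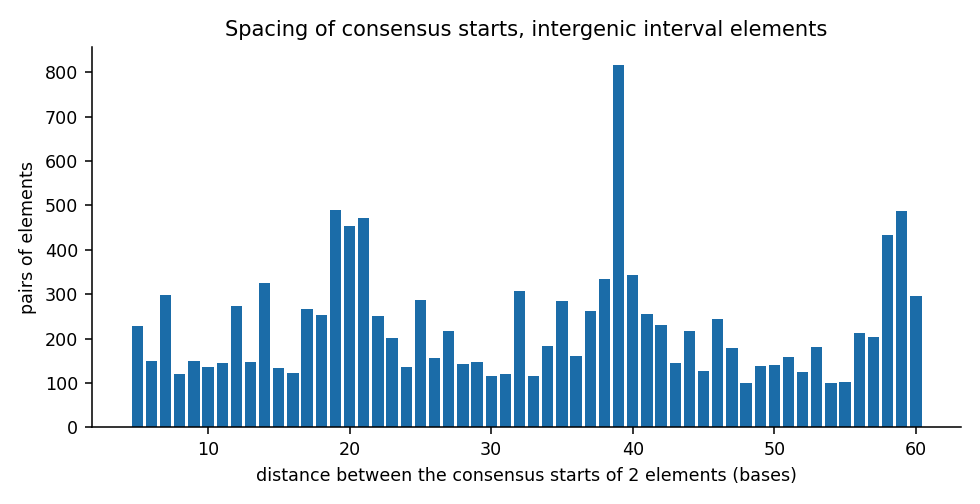
Number of pairs among the 491 intergenic interval elements (vertical axis) whose consensus starts lie the given number of bases apart (horizontal axis). The tallest bar is at 39 bases with 815 pairs, and lower peaks stand at 19 and 59 bases.

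Ends fell at a pair of places near the 3′ end of the consensus. The most frequent end was base 1816, in 133 elements, and 204 (41.5%, exact 95% interval 37.1 to 46.0) ended between 1814 and 1818. A further 194 (39.5%, 35.2 to 44.0) ended between 1834 and 1839, the highest end listed. Of the rest, 64 lay in between and 29 (5.91%) stopped short of 1814. Intronic interval elements ended at 1814 to 1818 in 33.5% (29.6 to 37.7) and at 1834 to 1839 in 41.8%. All 1856 intergenic single-base sites are listed with an end of 1838 or 1839. The sources do not say whether those ends were observed or assigned, so nothing is read from the lack of the earlier end there.

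Length and consensus span were compared element by element. At single-base sites the deposited length equals the consensus span by construction, whereas at interval elements it is the genomic length. Intergenic interval elements exceeded their consensus span by a median of 87 bp (quartiles 9 and 425 bp), and intronic ones by 184 bp (11 and 491 bp). The excess was above 100 bp in 240 of the 491 (48.9%, 44.4 to 53.4), against 299 of 543 intronic elements (55.1%, 50.8 to 59.3). In 80 elements (16.3%) the genomic length was below the span. Which part of the element holds the extra bases was not determined here.

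Strand was close to even. The minus strand held 254 elements and the plus strand 237 (48.3%, exact 95% interval 43.8 to 52.8), against 49.4% on the plus strand at intergenic single-base sites (47.1 to 51.7). Neighbouring elements on a chromosome had the same strand in 235 of 465 cases, and in 19 of the 33 cases that were at most 100000 bp apart.

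All 26 chromosomes held at least 1 element, but unevenly. Chromosome 4 held the most (37), followed by 1a (34), 12 and 17 (30 each) and 14 (29). Measured to the last listed LAVA site of the chromosome, since chromosome lengths of the build are not given, the density over the genome was 1.76 elements per 10 Mb. It was highest on chromosomes 14 (3.06) and 17 (3.004). The lowest densities were those of chromosome 25 (0.312, a single element) and chromosome 11 (0.487, 6 elements). Chromosome 11 was also low for intronic interval elements (0.650 per 10 Mb), although it held 191 sites of all classes, 3.48% of the table. Chromosome 19 had few intergenic elements (7) beside 19 intronic ones, as did chromosomes 6 (16 beside 33), 22a (14 beside 27) and 5 (13 beside 23). The opposite balance was found on the X, with 27 intergenic elements (5.50% of the set, 3.65 to 7.90) beside 15 intronic ones (2.76%, 1.55 to 4.52), and to a similar degree on chromosomes 16 (12 beside 7), 20 (13 beside 8) and 23 (8 beside 5). Intergenic single-base sites were on the X in 4.69%. How much intergenic sequence each chromosome has was not available for comparison, and no test was made.

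**Figure D3:**
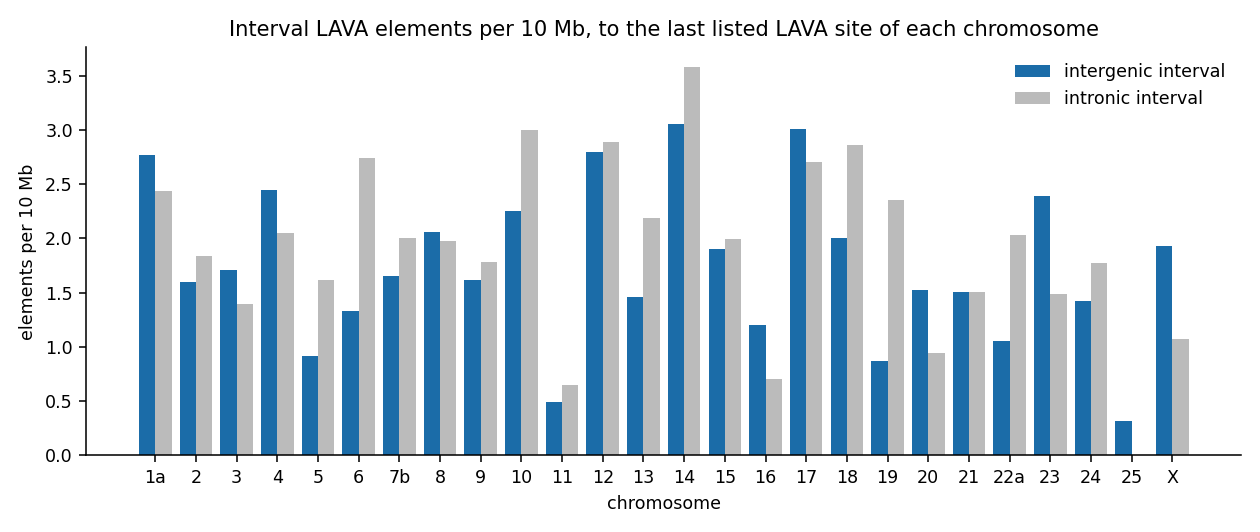
Interval elements per 10 Mb on each chromosome (horizontal axis), measured to the last listed LAVA site of that chromosome, for intergenic (blue) and intronic (grey) elements. Intergenic density was highest on chromosome 14 (3.06 per 10 Mb) and lowest on chromosome 25 (0.312). It stood above the intronic density on the X and on several other chromosomes, among them 16, 20 and 23.

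The elements were usually far apart. The nearest other intergenic interval element lay at a median distance of 1151970 bp, and 10 of 490 elements had 1 within 10000 bp. A LAVA site of any class was much nearer, at a median of 90750 bp, and lay within 10000 bp of 56 elements. The closest pair was on chromosome 15, where elements of 1065 bp (110287743 to 110288807) and 2709 bp (110291453 to 110294161) stood 2645 bp apart, both on the plus strand and both carried by all 23 animals. On the X, elements of 1140 and 1772 bp lay 3795 bp apart on opposite strands (36544376 to 36545515 and 36549311 to 36551082). Next were pairs 6555 bp apart on chromosome 17, 6910 bp apart on chromosome 10 and 9882 bp apart on chromosome 4.

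A single overlap with another LAVA site was found, and it was singled out after its values were seen. The element of 780 bp on the minus strand of chromosome 1a (91079738 to 91080517) has a single-base site of 1288 bp, on the plus strand, at position 91080516. The interval element was carried by 15 animals and the single-base site by 6. Of the 23 animals, 3 carried both and 5 carried neither.

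The next question was how many of the 491 elements an animal of each genus carries. Nomascus animals carried 482 at the lowest, 488 at the median and 491 at the highest. The Hylobates values were 443 in H. pileatus, 439 in H. lar, 436 in H. moloch replicate 2, 410 in H. muelleri and 407 in H. moloch replicate 1. Hoolock animals carried 430, 428 and 418, and Symphalangus animals 437 and 420. The lowest Nomascus animal thus stood above the highest animal of any other genus, while the other 3 genera overlapped one another. The 13 Nomascus animals averaged 488 ± 2.60 elements and the 5 Hylobates animals 427 ± 17.1 (SD over animals). Averages were 425 ± 6.43 over the 3 Hoolock and 428.5 ± 12.02 over the 2 Symphalangus animals.

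Exact two-sided permutation tests were made for the 6 pairs of genera, with Benjamini-Hochberg adjustment over the 6. Nomascus minus Hylobates was 61.1 elements (exact permutation, adjusted p = 0.0007). For Nomascus minus Hoolock it was 62.7 (exact permutation, adjusted p = 0.00536), and for Nomascus minus Symphalangus 59.6 (exact permutation, adjusted p = 0.019). Before adjustment each p was the smallest that its number of assignments can give. The N. leucogenys replicates 1 and 9 carried all 491 elements, and of the 1118 interval sites of all classes 0 lacked a Nomascus carrier. No animal could carry more than those replicates, so the direction of these differences was largely set by how the elements were listed. A genus difference cannot be told apart here from the choice of sites listed in interval form, and none is read from these p-values. Nomascus minus Hylobates was 56.1 without H. moloch replicate 1 and 56.8 without H. muelleri (exact permutation, adjusted p = 0.00252 each). With either Symphalangus animal left out, its difference from Nomascus was 51.1 or 68.1, with an adjusted p of 0.143 in the exact permutation test, whose smallest unadjusted p for 1 animal against 13 is 0.0714.

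Among the other genera the differences were small. Hylobates minus Hoolock was 1.67 elements, Hylobates minus Symphalangus -1.5 and Hoolock minus Symphalangus -3.17, each with an adjusted p of 0.905 in the exact permutation test. The smallest unadjusted p that 3 against 2 animals can give in an exact test is 0.1. Hylobates minus Hoolock was 6.67 without H. moloch replicate 1 (adjusted p = 0.771, exact permutation test) and 5.92 without H. muelleri (adjusted p = 0.867). Hylobates minus Symphalangus turned to 3.5 without H. moloch replicate 1 and to 2.75 without H. muelleri, and the signs of all 3 differences turned under some treatments of missing calls. Missing calls were unevenly spread, with 25 of the 34 among these elements in Hoolock animals (11, 7 and 7), 5 in Hylobates, 3 in Symphalangus and 1 in Nomascus.

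As a percentage of the class, intergenic elements were carried about as often as intronic ones in each genus. The 13 Nomascus animals carried 99.4 ± 0.529% of intergenic and 99.7 ± 0.206% of intronic interval elements (SD over animals, here and below). For the 5 Hylobates animals these shares were 87.0 ± 3.48% and 87.5 ± 2.83%. The intergenic share was 88.0 ± 3.04% without H. moloch replicate 1 and 87.8 ± 3.34% without H. muelleri, over 4 animals each. Without both, the intergenic share was 89.5 ± 0.715% and the intronic share 89.6 ± 0.463%, over 3 animals. The spread within Hylobates thus came mostly from this pair. Intergenic and intronic shares were 86.6 ± 1.31% and 87.9 ± 0.697% for the 3 Hoolock animals, and 87.3 ± 2.45% and 89.0 ± 1.17% for the 2 Symphalangus animals. The mean was lower for intergenic elements in each genus, by 0.34 to 1.77 percentage points, and this was not tested because all animals share the same elements. Intergenic single-base sites showed another order, with 7.60 to 13.5% carried by Nomascus animals and 41.8 to 44.6% by Hoolock animals. Hylobates animals carried 21.9 to 32.8% of them and Symphalangus animals 27.4 and 27.5%. No Nomascus animal carried 72.4% of these single-base sites, against 0 of the 491 interval elements. That order, too, cannot be told apart from the choice of sites listed in each form.

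**Figure D4:**
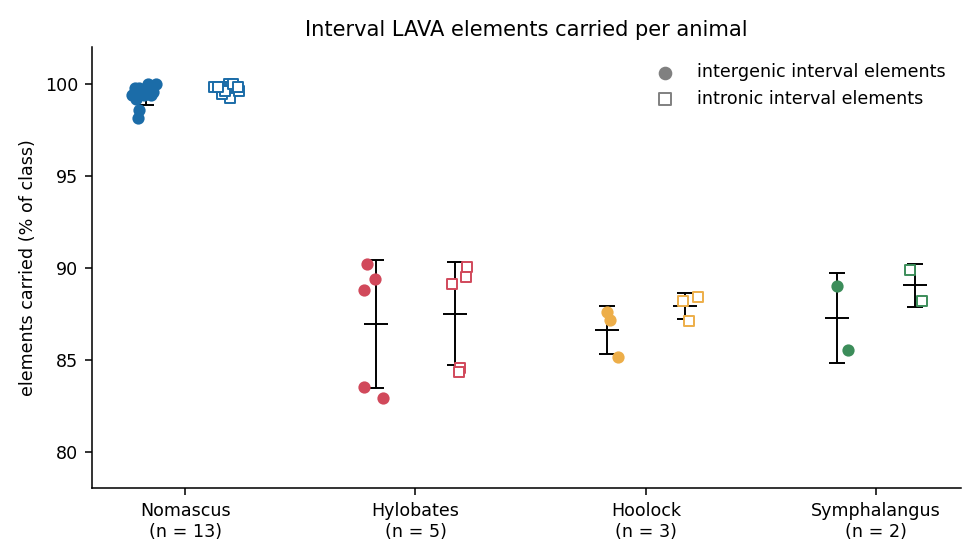
Percentage of the 491 intergenic (filled circles) and 543 intronic (open squares) interval elements carried by each animal, by genus; bars are means with SD, and the vertical axis does not start at 0. All 13 Nomascus animals lie above 98%, and the 5 Hylobates animals fall into a group of 3 near 89% and a pair near 83% for intergenic elements.

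Presence in a genus was then counted, with a genus taken as carrying an element if at least 1 of its animals did. Of the 491 elements, 423 (86.2%, exact 95% interval 82.8 to 89.1) were carried in all 4 genera, close to the 472 of 543 intronic interval elements (86.9%, 83.8 to 89.6). A further 24 were found in Nomascus, Hylobates and Hoolock, 10 in Nomascus, Hylobates and Symphalangus, and 4 in Nomascus, Hoolock and Symphalangus. Carriers outside Nomascus belonged to a single genus at 11 elements for Hylobates, 5 for Symphalangus and 2 for Hoolock. No animal outside Nomascus carried the remaining 12 (2.44%), against 7 of the intronic elements (1.29%, 0.520 to 2.64). Absence from a whole genus concerned 23 elements in Hylobates, 38 in Hoolock and 49 in Symphalangus, which have 5, 3 and 2 animals. Without H. moloch replicate 1, and likewise without H. muelleri, 423 elements were carried in all 4 genera and 23 were absent from Hylobates, as with all 5 animals. Without both, these numbers were 423 and 24.

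All 23 animals carried 392 of the 491 elements (79.8%, 76.0 to 83.3), and 445 of the 543 intronic interval elements (82.0%, 78.5 to 85.1). Of the 99 that varied, only 15 were carried by all or none of the animals in each of Hylobates, Hoolock and Symphalangus, and 12 of these 15 are the elements with no carrier outside Nomascus. At the other 84 at least 1 of those genera was split, 40 of them in 1 genus, 32 in 2 genera and 12 in all 3. No element was carried by all animals of Nomascus and of exactly 1 other genus and by nobody else. Split elements numbered 63 in Hylobates (60 without H. moloch replicate 1, 63 without H. muelleri, 50 without both), 50 in Hoolock and 27 in Symphalangus.

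Within Hylobates the splits did not follow the species labels. Beside the 5 elements that set H. moloch replicate 1 apart from H. muelleri, the 2 H. moloch animals differed at 33, and the other pairs at 25 to 41. H. moloch replicate 1 carried 15 of the 99 varying elements and H. muelleri 18, against 51 in H. pileatus, 47 in H. lar and 44 in H. moloch replicate 2. At 32 elements a single Hylobates animal was the carrier, which was H. pileatus at 16, H. moloch replicate 2 at 9 and H. lar at 7, and at none of them H. moloch replicate 1 or H. muelleri. The same pair had the most intergenic single-base sites of the genus, 609 and 588, against 534, 432 and 406 in H. moloch replicate 2, H. lar and H. pileatus. Missing calls among the 491 elements numbered 0 to 2 in each Hylobates animal. Sequencing depth per animal is unknown, and its part in these splits was not tested.

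In Hoolock the 3 animals differed from each other at 30 to 36 elements, and 1 animal alone was the carrier at 33. Missing calls, counted as not carried, numbered 11, 7 and 7 in these animals, more than in any animal of another genus. Their part in these differences, and in the 50 split and 38 absent elements of Hoolock, was not tested. The 2 Symphalangus animals differed at 27, of which 22 were carried by replicate 2 alone and 5 by replicate 1 alone.

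Elements carried by every animal were longer than those that varied. The median length was 1230.5 bp for the 392 elements carried by all animals (quartiles 915 and 1613.5 bp) and 950 bp for the 99 others (756 and 1245.5 bp). The excess over the consensus span differed more, with medians of 227 and 23 bp, and was above 100 bp in 55.6% (50.5 to 60.6) against 22.2% (14.5 to 31.7). Intronic interval elements showed the same order with medians of 1350 and 1114 bp for length and 257 and 43.5 bp for excess. From the shortest to the longest of 4 length classes of near equal size, 69.9%, 75.4%, 83.6% and 90.3% of the intergenic elements were carried by all animals. Across the 491 elements the number of carriers outside Nomascus and the length had a Pearson r of 0.174 and a Spearman rho of 0.2, given as a description since all elements share the same 10 animals. Consensus start had medians of 851 and 929, and the plus strand held 48.5% and 47.5%. As 391 of the 392 stand in the second run of the table, whether length itself or the way such elements were called goes with carriage cannot be told apart.

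**Figure D5:**
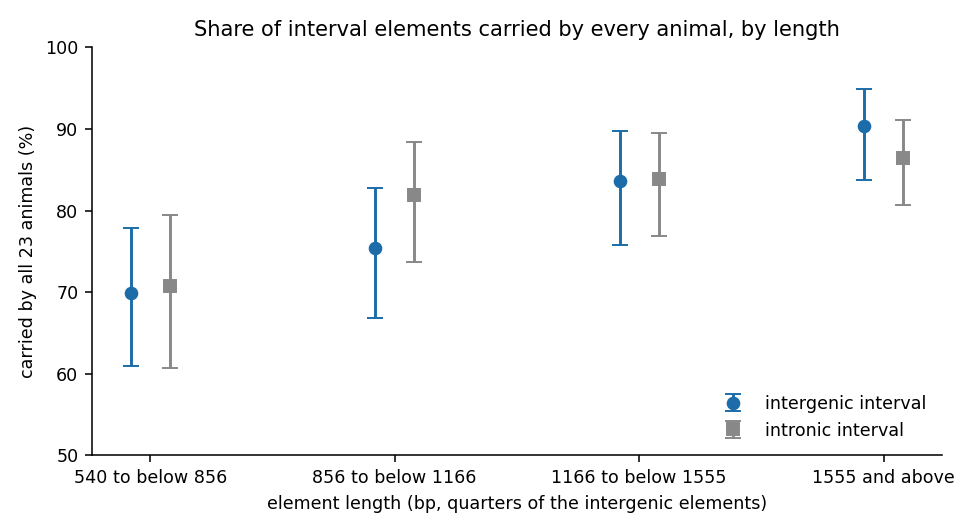
Share of interval elements carried by all 23 animals (percent, with exact Clopper-Pearson 95% intervals; the axis starts at 50) by length class, for intergenic (circles) and intronic (squares) elements. The intergenic share was 69.9% in the shortest class and 90.3% in the longest.

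Numbers of carriers among the 13 Nomascus and the 10 other animals were then compared at every site by Fisher's exact test (two-sided), with p-values adjusted over the 5490 sites. Carriers were more frequent in Nomascus at 64 of the 491 elements (13.03%), against 3.01% of all sites tested and 66 of the 543 intronic interval elements (12.2%). They were less frequent at 0 of the 491 by this test (0 also at an unadjusted p under 0.05), against 4.79% of all sites. With nearly all Nomascus animals carrying nearly all elements, a lower share in Nomascus could hardly arise, and no direction is read from these counts. The 64 became 50 without H. moloch replicate 1 and 51 without H. muelleri. All 64 had at most 4 carriers among the 10 other animals, and 12 had none.

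The 12 elements with no carrier outside Nomascus were 665 to 1395 bp long with a median of 948 bp, on 9 chromosomes. Of these, 7 were on the minus strand and 5 on the plus strand, and 8 ended between bases 1834 and 1839 of the consensus. All 13 Nomascus animals carried 11 of them, a description with no test since these elements are picked by who carries them. On chromosome 1a these were elements of 720 bp (60907002 to 60907721) and 1246 bp (72629465 to 72630710), and on chromosome 15 elements of 928 bp (16327218 to 16328145) and 968 bp (32975615 to 32976582). The longest of the 11, with 1369 bp, lay on chromosome 6 (75108426 to 75109794) and covered the consensus from base 503 to 1838. Chromosome 11 held an element of 1126 bp (100783476 to 100784601) that started at base 1185 and was 474 bp longer than its span, the largest excess of the 11. The others were 1145 bp on chromosome 4 (62717190 to 62718334), 876 bp on chromosome 12 (86682342 to 86683217), 682 bp on chromosome 9 (46172694 to 46173375), 676 bp on chromosome 7b (68149456 to 68150131) and 665 bp on chromosome 10 (43442165 to 43442829). Missing calls were present at 2 of the 11, those at 72629465 on chromosome 1a (1 call) and 16327218 on chromosome 15 (2 calls). The 12th element, 1395 bp on chromosome 9 (93229813 to 93231207), was carried by 10 of 11 N. leucogenys and by neither N. gabriellae.

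A test free of that direction was made among the 10 animals outside Nomascus. A Fisher-Freeman-Halton exact test of carriers in Hylobates, Hoolock and Symphalangus, adjusted over 5490 sites, called 2 of the 491 elements (0.407%), against 22.7% of all sites and 6 of 543 intronic interval elements (1.10%). All 10 animals carried 392 of the 491 elements, which therefore could not be called. The element of 571 bp on chromosome 4 (107937916 to 107938486) was carried by all 5 Hylobates and both Symphalangus animals and by none of the 3 Hoolock (exact test, adjusted p = 0.0372). On chromosome 8 an element of 581 bp (78416604 to 78417184) was carried by all 5 Hylobates, 1 Symphalangus and no Hoolock animal (exact test, adjusted p = 0.0419). Adjusted over interval sites alone, neither passed, and leaving out any 1 of the 10 animals left 0 calls or, without H. pileatus, 1.

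Next in order of p were elements of 802 bp on chromosome 3 (144433233 to 144434034) and 787 bp on chromosome 17 (25439798 to 25440584), carried by all Hylobates and Hoolock and by no Symphalangus animal (exact test, adjusted p = 0.0673). An element of 750 bp on chromosome 6 (24654172 to 24654921) and one of 1439 bp on chromosome 18 (53163409 to 53164847) were carried by all 5 Hylobates, 1 Hoolock and no Symphalangus animal (exact test, adjusted p = 0.0715). The element on chromosome 18 covered bases 8 to 958 of the consensus and was 489 bp longer than that span. Whether the extra bases hold the 3′ part was not determined.

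Within Nomascus, N. gabriellae lacked more of the elements than N. leucogenys. The 2 N. gabriellae carried 484 and 482 elements, and the 11 N. leucogenys 487 at the lowest, 489 at the median and 491 at the highest, so the species did not overlap. Means were 483 ± 1.41 (SD, n = 2) and 489 ± 1.34 (SD, n = 11), a difference of -6 elements. The exact two-sided permutation test gave p = 0.0128, the smallest that 78 assignments can give. With 1 N. gabriellae left out the difference was -7 or -5 and the exact p 0.0833, the smallest possible for 1 against 11 animals. Because N. leucogenys replicates 1 and 9 carried all 491 elements, no N. gabriellae animal could carry more than they did. The sources do not say in which animals the interval sites were found, and the part of that choice in this difference cannot be told apart from that of the species. No species difference is therefore read from this p-value.

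Only 12 of the 491 elements were missing from any Nomascus animal. They were 590 to 2251 bp long with a median of 913 bp, and 8 were on the plus strand. At least 1 animal outside Nomascus carried 11 of the 12, up to 7 of the 10. Both N. gabriellae lacked 6 of the 12. Of these 6, the element of 613 bp on chromosome 18 (61777934 to 61778546) was carried by all 11 N. leucogenys, and also by 1 Hylobates, 2 Hoolock and 1 Symphalangus animal. The others were 780 bp on chromosome 1a (91079738 to 91080517), 1416 bp on chromosome 3 (82060489 to 82061904), 590 bp on chromosome 13 (31871076 to 31871665), 650 bp on the X (51136268 to 51136917), and the element of chromosome 9 described above, each carried by 9 or 10 N. leucogenys.

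Among N. leucogenys, 11 elements were not carried by every animal. The most often lacking was the element of 2251 bp on chromosome 4 (90482999 to 90485249), carried by 6 of 11 N. leucogenys, with 1 missing call, and by 1 N. gabriellae, 3 Hylobates, 2 Hoolock and 2 Symphalangus animals. The element of 951 bp on chromosome 18 (34921715 to 34922665) was carried by 7 of 11, that of 1377 bp on chromosome 1a (77541047 to 77542423) by 8 of 11, and those of 745 bp on chromosome 12 (14597497 to 14598241) and 650 bp on the X by 9 of 11. Of the 12 elements that varied within Nomascus, 11 also varied among the 10 animals of the other genera, and that on chromosome 9 had no carrier there.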

How the data were processed

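Blood DNA of 23 gibbons was sequenced as Illumina libraries, and BWA is named in the submitters' processing notes without a version. The sources name neither the insertion caller nor its filters nor the genome build. The authors deposited 1 table of 5490 sites with position, length, consensus positions, location class, strand and a call per animal; 23 call columns were matched to animals by title. Starts were taken as counted from 0, since end minus start equals the length, and are printed from 1. Replicate numbers follow accession order inside each species and pair nothing. Missing calls counted as not carried. Tests were exact permutations over animals and exact tests per site over the whole table with Benjamini-Hochberg adjustment at 0.05 (Python 3.11.15, SciPy 1.17.1), tested on simulated data. Named elements are those carried by all Nomascus and nobody else, those in neither N. gabriellae, the 5 longest and shortest, the 6 of lowest p among the other 3 genera, the 5 closest pairs and the 5 most often lacking in N. leucogenys. Elements, lists and tests were chosen with earlier results of these data known. Alternatives were other treatments of missing calls, length limits, sites adjusted over, tolerances, and each animal left out.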

Additional observations from a re-analysis of the deposited data

How the results depend on the processing

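The number of elements was 491 under both definitions of an interval. Outside leaving out an animal, 26 of 36 recomputed values kept their direction and side of the threshold. Each exception among genus pairs had an adjusted p of 0.84 or more in the exact permutation test. With missing calls counted as carried, Hylobates minus Hoolock was -5.67 and Hoolock minus Symphalangus 3.67. Over elements with no missing call, Hylobates minus Symphalangus was 2.7 and Hoolock minus Symphalangus 1.5. Below 1000 bp, the 3 differences were -0.6 (Hylobates minus Hoolock), 1.4 (Hylobates minus Symphalangus) and 2 (Hoolock minus Symphalangus). The cause was not tested. Elements differing among the 3 other genera fell to 0 adjusted over interval sites only, and near full-length elements numbered 0 at a tolerance of 5 bases and 9 at 50.

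With 1 animal left out, Nomascus minus Hylobates ranged from 56.1 to 65.1, Nomascus minus Hoolock from 59.1 to 65.1 and Nomascus minus Symphalangus from 51.1 to 68.1. Hylobates minus Hoolock ranged from -2.33 to 6.67, Hylobates minus Symphalangus from -10 to 7 and Hoolock minus Symphalangus from -11.7 to 5.33. The difference of N. gabriellae from N. leucogenys ranged from -7 to -5. Elements more frequent in Nomascus numbered 50 to 68, and those differing among the other genera 0 to 1. No paired analysis was made, because each label names a different animal and nothing in the labels pairs them. Depth per animal is unknown and limits every absent call.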
